A study of Mus musculus with 6 samples.

Results

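The nuclear genes for the mitochondrial ribosome, the respiratory chain, the ATP synthase and the protein translocases of the mitochondrial membranes were examined in 6 lists of ChIP-seq peaks. They were taken as all genes whose deposited gene name begins with Mrpl, Mrps, Nduf, Uqcr, Cox4, Cox5, Cox6, Cox7, Cox8, Atp5, Timm or Tomm. RefSeq holds 196 protein-coding genes with these names among 21900 protein-coding genes of the mouse. Genes with these names, 2 of them not protein-coding, were the nearest gene of 399 peaks among the 97783 peaks of the 6 lists. Of the 196 genes, 77 had no peak in any list, 96 had peaks only away from their promoters, and 23 had a promoter peak, which is a peak within 1000 bp of the nearest transcription start site in the deposited annotation.

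The lists came from primary neural stem cells of the cortex of newborn mice, grown as adherent cultures with EGF and bFGF, and each of the 6 groups had 1 library. Chd4, the motor protein of NuRD, a complex that remodels nucleosomes and deacetylates histones, was the target in 4 libraries: iKO (genotype mutant, 4-OH-TAM in the medium), Ctrl (genotype wild type, growth medium), siSeh1 and siSCR (both genotype wild type, growth medium). Seh1, a structural protein of nuclear pores, was the target in 2 libraries: Seh1-flag (4-OH-TAM in the medium) and Seh1 Ctrl (growth medium), both of genotype wild type. The title of the Seh1-flag library reads iKO although its genotype reads wild type, and the name in its list begins with oe, which the labels do not explain. The labels do not spell out iKO, siSeh1 or siSCR; from the title of the series, iKO is read as cells in which Seh1 was deleted, siSeh1 as cells in which it was silenced, and siSCR as the control for siSeh1. The iKO cells differed from the Ctrl cells in 4-OH-TAM as well as in genotype, so genotype and treatment cannot be told apart in that comparison. Peak lists hold no expression, so the cell type could not be checked against its markers.

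The lists held 21294 peaks in iKO, 1154 in Ctrl, 26935 in siSeh1, 2606 in siSCR, 24961 in Seh1-flag and 20833 in Seh1 Ctrl. The number of reads behind each list is unknown, and whether depth differed with the condition was not tested. Each comparison is therefore between 2 libraries with no replicate check, no p-value is given, and the 95% intervals are exact Clopper-Pearson intervals that cover counting error only. The deposited peak score has no stated scale, so scores were used for ranks within a list, where rank 1 is the highest score and ties share their mean rank. All scores of the Seh1 Ctrl list are 0, and its peaks have no rank.

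Mitochondria make only a few of their own proteins. The ribosomes that translate these, most subunits of the respiratory complexes and of the ATP synthase, and the channels that carry proteins through the outer and inner membranes are all encoded in the nucleus. The promoters of these genes tend to be rich in CpG dinucleotides, and the transcription factors NRF1, GABP (of the ETS family) and YY1 are known to act on many of them. NuRD couples nucleosome remodelling to removal of histone acetyl groups and is known to occupy many active, CpG-rich promoters.

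The promoters on which the results turn are shown first, because the position and the letters of each are referred to below. Each line holds the 250 bases before the RefSeq start of the gene, 5' to 3' on the strand of the gene, from RefSeq on GRCm38.p6, the assembly that mm10 represents. Capitals mark the short motifs searched on both strands: CCAAT (NFY) or its complement, GGGCGG (SP1) or its complement, TGACGT (CRE), and GCGCATGC (NRF1) or its complement. Mrpl41, Atp5b and Tomm40 had a Chd4 promoter peak in 3 lists, Ndufs8, Timm50 and Mrps18b in both perturbed lists, and Ndufaf2 in siSCR.
Mrpl41, chr2:24975099-24975348, minus strand: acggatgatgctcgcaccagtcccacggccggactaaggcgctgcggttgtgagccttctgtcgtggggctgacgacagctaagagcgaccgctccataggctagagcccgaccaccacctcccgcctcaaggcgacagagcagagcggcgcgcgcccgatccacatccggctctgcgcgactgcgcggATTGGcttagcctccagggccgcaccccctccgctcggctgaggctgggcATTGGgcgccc
Atp5b, chr10:128083057-128083306, plus strand: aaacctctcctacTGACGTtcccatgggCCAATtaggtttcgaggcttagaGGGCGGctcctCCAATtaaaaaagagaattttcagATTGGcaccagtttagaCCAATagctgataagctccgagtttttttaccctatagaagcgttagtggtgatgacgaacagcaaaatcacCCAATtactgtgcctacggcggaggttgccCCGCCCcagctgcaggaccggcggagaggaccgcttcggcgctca
Tomm40, chr7:19715430-19715679, minus strand: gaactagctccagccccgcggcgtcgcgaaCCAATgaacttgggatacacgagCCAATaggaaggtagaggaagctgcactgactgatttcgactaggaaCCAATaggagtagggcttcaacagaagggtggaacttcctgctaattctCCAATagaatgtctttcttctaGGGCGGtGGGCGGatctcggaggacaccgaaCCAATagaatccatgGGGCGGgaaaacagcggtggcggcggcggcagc
Ndufs8, chr19:3912775-3913024, minus strand: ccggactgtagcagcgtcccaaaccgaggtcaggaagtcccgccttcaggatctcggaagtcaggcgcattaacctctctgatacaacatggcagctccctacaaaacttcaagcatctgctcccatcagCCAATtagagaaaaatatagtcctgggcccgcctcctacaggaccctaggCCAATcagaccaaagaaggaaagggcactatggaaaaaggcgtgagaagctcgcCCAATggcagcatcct
Timm50, chr7:28312047-28312296, minus strand: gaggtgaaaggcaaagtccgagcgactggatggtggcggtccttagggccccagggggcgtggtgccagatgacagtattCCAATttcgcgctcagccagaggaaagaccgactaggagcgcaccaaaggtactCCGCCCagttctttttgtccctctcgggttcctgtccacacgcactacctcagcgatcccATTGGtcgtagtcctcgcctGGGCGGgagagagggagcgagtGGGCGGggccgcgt
Mrps18b, chr17:35916441-35916690, minus strand: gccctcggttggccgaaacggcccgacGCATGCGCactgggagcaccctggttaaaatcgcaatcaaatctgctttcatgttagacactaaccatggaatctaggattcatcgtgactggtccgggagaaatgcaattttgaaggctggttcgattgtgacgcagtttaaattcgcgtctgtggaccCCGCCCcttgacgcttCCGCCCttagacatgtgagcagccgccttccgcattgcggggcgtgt
Ndufaf2, chr13:108158626-108158875, minus strand: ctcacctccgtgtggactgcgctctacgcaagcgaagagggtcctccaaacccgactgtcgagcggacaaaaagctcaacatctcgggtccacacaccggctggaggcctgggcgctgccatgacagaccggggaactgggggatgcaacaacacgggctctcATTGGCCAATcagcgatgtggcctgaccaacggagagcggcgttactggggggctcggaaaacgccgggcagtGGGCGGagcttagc
The Mrpl41 sequence has 27 CpG dinucleotides in 250 bases and a GC content of 68.8%. The Atp5b and Tomm40 sequences each hold 5 matches to CCAAT, the Ndufs8 sequence 3, and the Mrpl41, Timm50 and Ndufaf2 sequences 2 each. The Mrps18b sequence holds none, and is the one shown with a match to GCGCATGC.

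Chd4 promoter peaks were listed at 10 of the 196 mitochondrial genes in iKO and at none in Ctrl, and at 18 in siSeh1 against 4 in siSCR. The 10 genes in iKO were 5.10% of the 196 (95% interval 2.47 to 9.18%), where 5.18% of all protein-coding genes had a promoter peak. No mitochondrial gene was listed in Ctrl, which allows a share of up to 1.86% by the exact interval, and 0.0183% of all genes (4 genes) were. The iKO share lay within counting error of the background, so it is no result about mitochondrial genes as such.

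In siSeh1 the 18 genes were 9.18% of the 196 (5.53 to 14.1%), against 11.8% of all genes. In siSCR the 4 genes were 2.04% (0.559 to 5.14%), against 1.63% of all genes. Each share lay within counting error of its background, so the larger counts in the perturbed lists follow those of all genes. Restricting both sets to genes with a CpG-dense RefSeq promoter, a choice made after the values were seen, left 9 of 127 mitochondrial genes in iKO (7.09%, 3.29 to 13.0%) against 8.45% of all such genes, and 13 in siSeh1 (10.2%, 5.56 to 16.9%) against 20.3%. In siSCR 4 of 127 had a peak (3.15%) against 3.03%. In siSeh1 the share of the mitochondrial genes was then below that of CpG-dense promoters in general, with the background outside the counting interval. The difference was smaller and within the interval when a peak counted for every gene start near it, as given below.

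**Figure D1:**
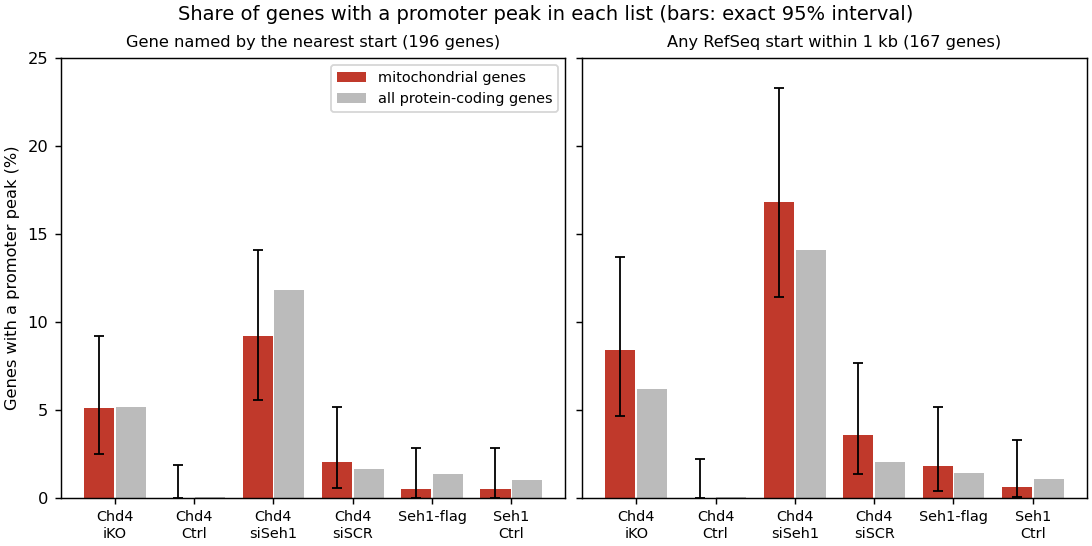
Share of genes (%) with a promoter peak in each of the 6 lists, for mitochondrial genes (red, with exact 95% intervals) and all protein-coding genes (grey), by the nearest start (left, 196 mitochondrial genes) and by any RefSeq start within 1000 bp (right, 167 mitochondrial genes). In every list the grey bar lies within the interval of the red one, and no mitochondrial gene was listed in Chd4 Ctrl.

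Genes listed at their promoter in a perturbed library but not in its control are called gained, and the opposite case lost. By that rule 10 mitochondrial genes (5.10%) were gained in iKO against Ctrl, where 5.18% of all genes were, and none was lost, where 0.0183% of all genes were. In siSeh1 against siSCR 15 were gained (7.65%, 4.35 to 12.3%), against 10.5% of all genes, and 1 was lost (0.510%), against 0.297%. The gene lost was Ndufaf2, which is taken up with its neighbour below. A peak was present in both iKO and siSeh1 at 8 mitochondrial genes (4.08%, 1.78 to 7.88%), against 3.19% of all genes, and 5 were gained in both comparisons (2.55%, 0.833 to 5.85%), against 2.17%.

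Of the 10 genes in iKO, 8 also had a promoter peak in siSeh1 (80.0%, 44.4 to 97.5%), where 61.6% of all iKO promoter genes did. Of the 18 genes in siSeh1, 8 had one in iKO (44.4%, 21.5 to 69.2%), where 26.9% of all siSeh1 promoter genes did. Of the 4 genes in siSCR, 3 had one in siSeh1 (75.0%, 19.4 to 99.4%) and the same 3 in iKO, against 81.8% and 66.5% of all siSCR promoter genes. These 3, Mrpl41, Atp5b and Tomm40, were 1.53% of the mitochondrial genes, where 1.01% of all genes had a peak in all 3 lists. Every one of these intervals covers its background.

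Mrpl41, a protein of the large subunit of the mitochondrial ribosome, had the highest-ranked Chd4 promoter peak of the set in siSeh1. Its peak had a score of 10.2 and rank 184 of 21294 in iKO (top 0.864%), a score of 35.0 and rank 6.5 of 26935 in siSeh1 (top 0.0241%), and a score of 6.68 and rank 194 of 2606 in siSCR (top 7.44%). The summits lay at positions 24975165, 24975131 and 24975129 of chromosome 2 in iKO, siSeh1 and siSCR, which is 67, 33 and 31 bp upstream of the start. The siSeh1 and siSCR summits lie between the CCAAT matches at -61 and -11, counted from the start to the first base of each match, and the iKO summit lies just upstream of both matches. Among the other 48 genes of the large subunit only Mrpl18, in iKO, had a Chd4 promoter peak under its own name. The Mrpl18 peak had a score of 3.91 (rank 7528.5, top 35.4%) and its summit 47 bp upstream of the start. Of all protein-coding genes, 14.1% had a promoter peak in a Chd4 list.

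Among the 29 genes named for the small subunit, Mrps18b was in both perturbed lists, while Mrps30 and Mrps9 were in siSeh1. That is 3 of the 29 in siSeh1, where 11.8% of all genes had a promoter peak. Mrps18b had a score of 6.23 in iKO (rank 715.5, top 3.36%) and of 6.58 in siSeh1 (rank 1204, top 4.47%), with summits 365 and 312 bp upstream of the start at chr17:35916805 and chr17:35916752. Both summits lie upstream of the 250 bases shown, toward Ppp1r10, whose start is 756 bp away on the opposite strand. Mrps30, which keeps its small-subunit name although structures place it in the large subunit, had a score of 7.19 in siSeh1 (rank 1019.5, top 3.79%, 86 bp upstream), and Mrps9 a score of 3.05 (rank 17313.5, top 64.3%, 12 bp upstream). Mrps18b and Mrps30 thus ranked among the top 10% of siSeh1 peaks, and Mrps9 in the lower part of the list.

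Complex I passes electrons from NADH to ubiquinone. Of the 41 genes with Nduf names other than Ndufaf, 4 had a Chd4 promoter peak, all of them in siSeh1, against 11.8% of all genes. These names include Ndufa4, which is now placed in complex IV. Ndufs8, an iron-sulfur subunit of the core, was also in iKO. Its score was 4.53 in iKO (rank 3669, top 17.2%, 62 bp upstream) and 7.19 in siSeh1 (rank 1060.5, top 3.94%, 126 bp upstream), with summits at chr19:3912836 and chr19:3912900. Each of these summits lies within 10 bases of a CCAAT match, the iKO summit near that at -70 and the siSeh1 summit near that at -120. Ndufa2, an accessory subunit, had a score of 11.1 in siSeh1 (rank 438, top 1.63%, 22 bp downstream). Ndufs7, another iron-sulfur core subunit, had a score of 4.58 in siSeh1 (rank 4255.5, top 15.8%, 402 bp upstream), and Ndufb10, also accessory, had a score of 2.93 inside its own first intron (rank 19552, top 72.6%, 564 bp downstream). Of the 8 genes of complex I assembly factors, Ndufaf2 had a peak in siSCR with a score of 5.87 (rank 256 of 2606, top 9.82%, 26 bp upstream). Of all genes, 1.63% had a promoter peak in siSCR, and no interval was computed for this group of 8 genes.

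The cytochrome complexes had promoter peaks of Chd4 in siSeh1 and in no other Chd4 list. Of all genes, 11.8% had a promoter peak in siSeh1. Uqcrc2, a core protein of complex III, had a score of 3.79 (rank 9334, top 34.7%, 371 bp upstream), and was 1 of 8 complex III genes. Of 18 complex IV genes, Cox8a had a score of 3.76 (rank 10767.5, top 40.0%, 172 bp upstream) and Cox7a2 a score of 3.62 (rank 11609.5, top 43.1%, 8 bp downstream). All 3 ranked well below the top 10% of siSeh1 peaks.

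The ATP synthase had Chd4 promoter peaks at 5 of its 17 genes, the largest share of the 9 groups of genes, a pick made after the values were seen. That is 29.4% (10.3 to 56.0%), where 10.7% of all mitochondrial genes (21 of 196) and 14.1% of all protein-coding genes had a peak in a Chd4 list, so the difference is within counting error. Atp5b, the catalytic beta subunit, had a score of 5.36 in iKO (rank 1473, top 6.92%), 10.2 in siSeh1 (rank 514, top 1.91%) and 6.31 in siSCR (rank 226.5, top 8.69%). Its summits lay 235, 171 and 144 bp upstream of the start in iKO, siSeh1 and siSCR, at positions 128083072, 128083136 and 128083163 of chromosome 10. The siSeh1 and siSCR summits lie among the 5 CCAAT matches of the sequence shown, and the iKO summit lies upstream of these, in the TGACGT match at -237. Atp5g1, which encodes the c subunit of the membrane ring, had a score of 6.49 in iKO (rank 594.5, top 2.79%, 165 bp upstream) and of 2.72 in siSeh1 (rank 21512, top 79.9%, 157 bp downstream in intron 1). These 2 distances are from different annotated starts. From the RefSeq start the Atp5g1 summits lay at -228 bp in iKO and 157 bp in siSeh1. The summits were thus 385 bp apart, the widest gap of the 8 genes in both perturbed lists, so the gene is shared between the lists but the peak is not.

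The other 3 ATP synthase genes encode parts of the peripheral stalk and were each in 1 list. Atp5h, subunit d, had a score of 6.28 in iKO (rank 707, top 3.32%, 66 bp upstream). In siSeh1, Atp5j, coupling factor 6, had a score of 3.79 (rank 9334, top 34.7%, 32 bp upstream) and Atp5o, the oligomycin sensitivity protein, a score of 2.68 (rank 22676, top 84.2%, 279 bp upstream). The start of Atp5j lies 501 bp from that of Gabpa on the opposite strand, the gene for the DNA-binding subunit of GABP.

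Of the 26 genes with Timm or Tomm names, 3 had Chd4 promoter peaks, each in both perturbed lists. Over all protein-coding genes, 14.1% had a promoter peak in a Chd4 list and 3.19% in both perturbed lists. No interval was computed for this group. Tomm40, the channel of the outer membrane, had a score of 2.33 in iKO (rank 19961.5, top 93.7%), 17.6 in siSeh1 (rank 127, top 0.472%) and 4.15 in siSCR (rank 800.5 of 2606, top 30.7%). Its summits lay 397, 219 and 326 bp upstream of the start in iKO, siSeh1 and siSCR, at positions 19715826, 19715648 and 19715755 of chromosome 7. Tomm40 thus stood near the top of siSeh1 and near the bottom of iKO. The siSeh1 summit falls in the bases shown, in the CCAAT match at -220, and the iKO and siSCR summits lie upstream of them.

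Timm17a and Timm50 belong to the TIM23 complex, which carries proteins with a presequence through the inner membrane. Timm17a had a score of 5.46 in iKO (rank 1373, top 6.45%, 239 bp upstream) and 5.98 in siSeh1 (rank 1571.5, top 5.83%, 129 bp upstream). Timm50 had a score of 5.59 in iKO (rank 1085, top 5.10%, 15 bp upstream) and 5.44 in siSeh1 (rank 1857, top 6.89%, 49 bp upstream). Both genes ranked in the top 10% of both perturbed lists, and neither had a peak in Ctrl or siSCR.

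**Figure D2:**
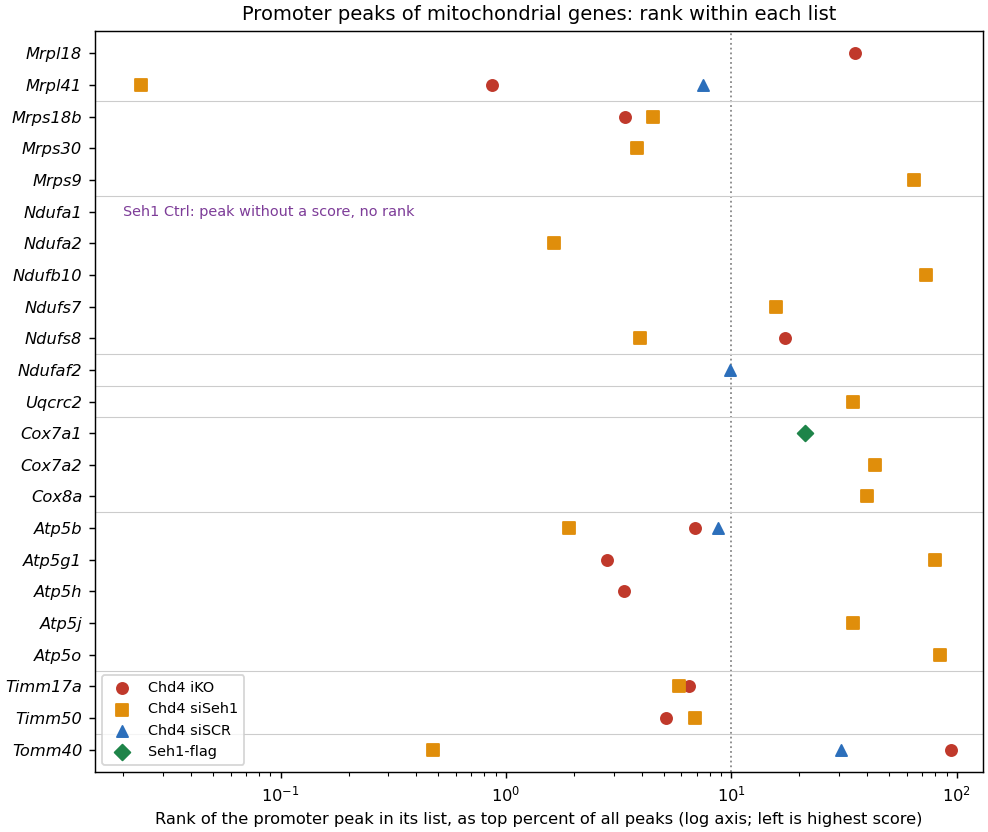
Rank of each promoter peak within its list, as the top percent of all peaks of that list (log axis, left is highest), for the 23 mitochondrial genes with a promoter peak; grey lines separate the groups of genes and the dotted line marks the top 10%. Mrpl41 in siSeh1 lies farthest left, and Tomm40 spans from the top 0.472% in siSeh1 to the top 93.7% in iKO.

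By rank, 7 of the 10 iKO peaks (70.0%) were in the top 10% of their list, with a median of the top 5.77%, where 48.1% of all 1245 genes with an iKO promoter peak were in the top 10%, with a median of 12.4%. In siSeh1 9 of 18 (50.0%) were in the top 10%, with a median of 11.3%, where 50.1% of all 2750 promoter genes were, with a median of 9.85%. In siSCR 3 of 4 (75.0%) were, with a median of 9.26%, where 37.0% of all 384 promoter genes were, with a median of 15.9%. The counting intervals of the 3 shares, 34.8 to 93.3% in iKO, 26.0 to 74.0% in siSeh1 and 19.4 to 99.4% in siSCR, each cover the share of all promoter genes. The 8 genes also in iKO had a median siSeh1 score of 6.89 and the 10 genes not in iKO one of 3.78, and over all promoter genes these medians were 9.11 (729 genes) and 4.51 (2021 genes).

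Most summits lay just upstream of the start. In iKO all 10 were upstream, at a median of 116 bp, where 67.6% of all promoter genes had their summit upstream. In siSeh1 14 of 18 were (77.8%), against 69.0%, and in siSCR 4 of 4, against 81.2%. Of the 8 genes in both perturbed lists, 7 had summits within 250 bp of each other (87.5%, median gap 64 bp), against 93.4% of 729 genes (median gap 52 bp), and the exception was Atp5g1. Between siSeh1 and siSCR the gaps were 2 bp at Mrpl41, 27 bp at Atp5b and 107 bp at Tomm40, with a median over all 307 shared genes of 40 bp. The gaps were thus of the size seen at shared promoters in general.

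**Figure D3:**
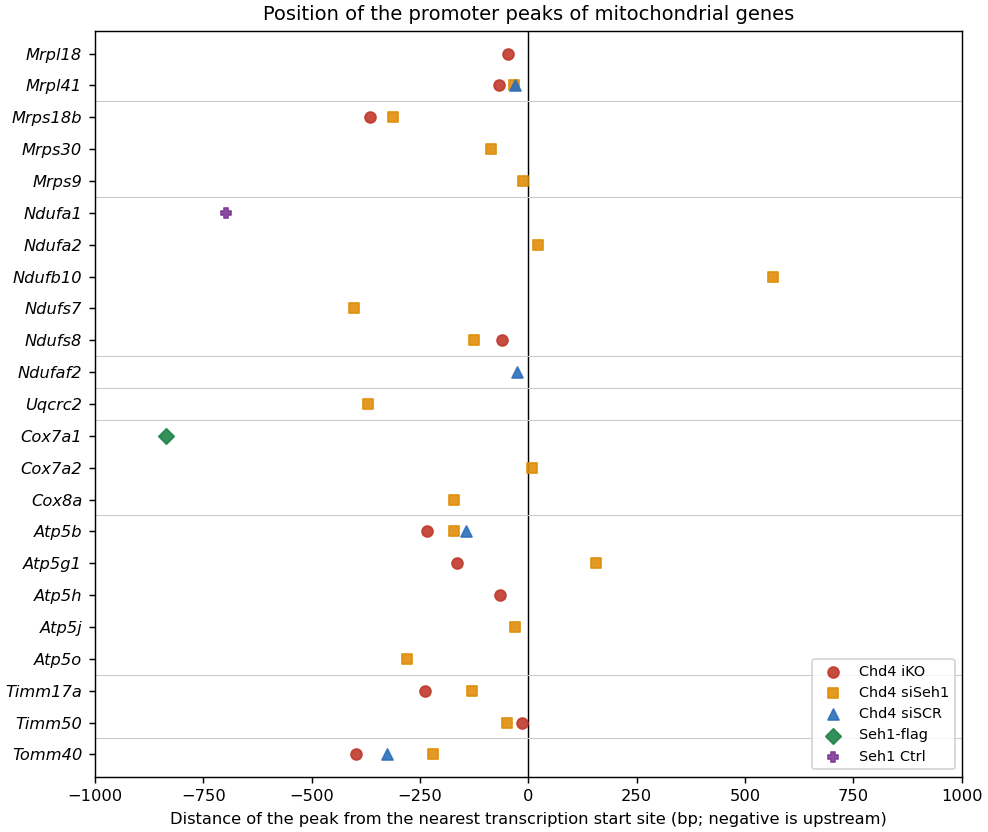
Distance in bp of each promoter peak from the nearest annotated transcription start site (negative is upstream) for the 23 mitochondrial genes with a promoter peak, by list. Most points lie within 500 bp upstream of the start; the 2 Seh1 peaks, at Cox7a1 and Ndufa1, lie at -837 and -697 bp.

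Mitochondrial genes often share a promoter region with a neighbour, which bears on how these peaks are named. Of the 167 mitochondrial genes with an entry in the RefSeq promoter table, 49 (29.3%) had a protein-coding gene that starts head to head with them within 1000 bp, against 8.48% of 17492 protein-coding genes. The share was 31.6% (6 of 19) for those with a Chd4 promoter peak and 29.1% (43 of 148) for those without. Over all genes it was 8.49% for those with an iKO promoter peak and 10.4% for those with a siSeh1 promoter peak. A shared promoter was thus common among mitochondrial genes with and without Chd4.

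The deposited annotation names only the nearer gene, and 3 promoters were split between lists in that way. The Atp5h peak of iKO had a siSeh1 peak 67 bp away (chr11:115420052, score 11.1, rank 438, top 1.63%) listed under Kctd2, whose start is 207 bp from that of Atp5h. The Mrpl18 peak of iKO had a siSeh1 peak 220 bp away (chr17:12916358, score 8.14, rank 818.5, top 3.04%) listed under Tcp1, the gene of a chaperonin subunit, whose start is 238 bp away. The Ndufaf2 peak of siSCR, at chr13:108158651, had a siSeh1 peak 73 bp away (chr13:108158724, score 5.44, rank 1876.5, top 6.97%) listed under Ercc8, a gene of transcription-coupled DNA repair, whose start is 113 bp away. By position, then, both genes listed in iKO alone and the 1 gene called lost in siSeh1 had a siSeh1 peak at the same promoter.

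When a peak was assigned to every RefSeq start within 1000 bp, genes without an entry in the promoter table dropped out, Ndufa2 and Uqcrc2 with their siSeh1 peaks among them. Of those left, 14 of 167 mitochondrial genes had a Chd4 promoter peak in iKO (8.38%, 4.66 to 13.7%), against 6.21% of all genes, and none in Ctrl, against 0.0286%. In siSeh1 28 did (16.8%, 11.4 to 23.3%), against 14.1%, and in siSCR 6 (3.59%, 1.33 to 7.66%), against 2.06%. Both perturbed lists held 13 (7.78%, 4.21 to 12.9%), against 4.09%. Of the 14 in iKO, 13 were in siSeh1 (92.9%, 66.1 to 99.8%), against 65.9% of all genes. Of the 6 in siSCR, all 6 were in siSeh1 (54.1 to 100%), against 88.1%, and 4 in iKO, against 70.6%. For the count in both lists and for the share of iKO genes also in siSeh1, the background lay just outside the counting interval. Neighbours that share a peak are counted once each, so these genes are not independent. The rule also favours genes with a close neighbour, and 29.3% of mitochondrial genes had one head to head against 8.48% of all genes. Whether the differences remain among genes with like neighbours was not tested, so they are no result about mitochondrial genes as such. Among CpG-dense promoters the shares were 10.2% in iKO against 9.73%, 18.9% in siSeh1 (12.5 to 26.8%) against 23.5%, and 4.72% in siSCR against 3.58%.

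This assignment added 10 genes to those with a Chd4 peak, 8 of which have a head-to-head coding neighbour. A gene is added only through a peak named for another gene nearby, so this share follows largely from the rule. Ndufaf8, a complex I assembly factor, joined Mrpl41, Atp5b and Tomm40 in all 3 lists through peaks named for Tepsin, with scores of 6.97 in iKO (rank 475), 7.50 in siSeh1 (rank 930.5) and 5.47 in siSCR (rank 358.5). Mrpl32, of the large ribosomal subunit, was added through peaks named for the proteasome gene Psma2, with scores of 8.14 in iKO (rank 327.5, 165 bp from the start) and 12.2 in siSeh1 (rank 368.5, 110 bp). Mrpl51 was added through peaks named for the condensin gene Ncapd2, with scores of 10.1 in siSeh1 (rank 536) and 5.15 in siSCR (rank 413.5). Atp5pb, subunit b of the peripheral stalk, was added through Wdr77, with scores of 3.83 in iKO, 970 bp from its start, and 7.38 in siSeh1, 123 bp from it. The others were Mrpl30 in iKO and Atp5c1, Mrpl48, Mrpl57, Ndufb3 and Ndufb4b in siSeh1, with scores of 2.91 to 5.98.

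The promoters of the mitochondrial genes were CpG-dense in 76.0% of 167, here defined as an observed over expected CpG ratio of at least 0.6 with a GC content of at least 50%, against 48.2% of all protein-coding genes. Those with a Chd4 peak were CpG-dense in 84.2% (16 of 19) and those without in 75.0% (111 of 148). All genes with a promoter peak in iKO and in siSeh1 were CpG-dense in 74.6% and 79.6%. The median GC content was 57.3% with a Chd4 peak and 58.7% without, so the mitochondrial promoters with and without Chd4 were close in composition.

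Short motifs were counted from 250 bases before to 50 after the start, on both strands. CCAAT, the letters read by NFY, was in 68.4% (13 of 19) of mitochondrial promoters with a Chd4 peak and in 35.8% (53 of 148) of those without, against 38.5% of all promoters. Among all genes it was in 70.0% of promoters with an iKO peak and 62.3% of those with a siSeh1 peak, so the mitochondrial share with a peak was like that of other Chd4 promoters. GGGCGG, read by SP1, was in 52.6% of mitochondrial promoters with a Chd4 peak and 45.9% without, against 71.7% and 73.0% of all promoters with a peak in iKO and siSeh1 and 47.8% of all promoters.

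The letters read by factors known from mitochondrial promoters were no more common in promoters with a Chd4 peak than in those without. GCGCATGC (NRF1) was in 5.26% (1 of 19, Mrps18b) with a Chd4 peak and 12.8% (19 of 148) without, against 3.68% of all promoters. CCGGAAG (ETS, the family of GABP) was in 26.3% with and 30.4% without, against 12.2%. AAGATGGC (YY1) was in 10.5% with and 14.2% without, against 3.29%. All 3 were more common in mitochondrial promoters than in all promoters, as a description of these letters alone. CACGTG (the E-box), TGACGT (CRE) and the core promoter box TATAAA were in 5.26%, 10.5% and 5.26% of mitochondrial promoters with a Chd4 peak and in 10.1%, 10.8% and 8.78% of those without, against 8.04%, 8.90% and 13.1% of all promoters. With 19 promoters in the first set, 1 promoter moves a share by 5.26 percentage points.

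**Figure D4:**
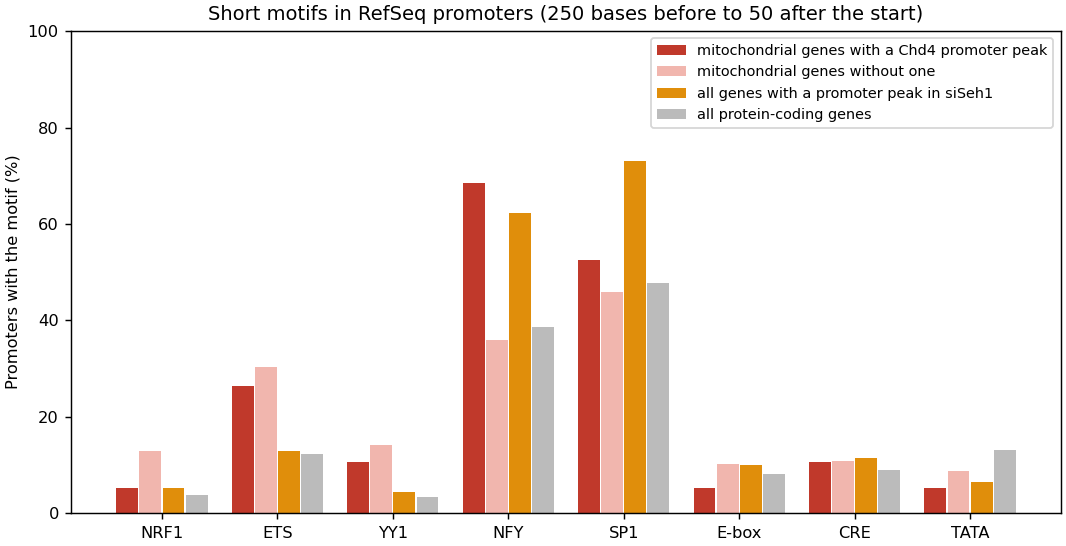
Share (%) of RefSeq promoters that hold each motif on either strand, for mitochondrial genes with a Chd4 promoter peak (19), mitochondrial genes without one (148), all genes with a promoter peak in siSeh1 (2152) and all protein-coding genes (17492). The NFY motif is in 68.4% of the first set and 35.8% of the second, and the ETS motif in 26.3% and 30.4%.

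Seh1 promoter peaks were listed at 1 mitochondrial gene in each Seh1 list, a different gene each time. Cox7a1, the heart and muscle form of a complex IV subunit, had a Seh1-flag peak 837 bp upstream of its start (chr7:30183334, score 6.33, rank 5260 of 24961, top 21.1%), which was rank 72 among 370 genes with a Seh1-flag promoter peak. That is 0.510% of the 196 genes (0.0129 to 2.81%), against 1.33% of all genes. Ndufa1, a complex I subunit, had a Seh1 Ctrl peak 697 bp upstream (chrX:37191815-37192056), again 0.510% against 1.02% of all genes. That peak lies inside Rnf113a1, which starts 16 bp from Ndufa1 on the opposite strand. No Chd4 list had a promoter peak at either gene. In both Seh1 lists together the 2 genes were 1.02% (0.124 to 3.64%), against 2.33% of all genes, and the shares were within counting error of the background.

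None of the 21 mitochondrial genes with a Chd4 promoter peak had a Seh1 peak of either list within 1000 bp of that peak, which allows a share of up to 16.1% by the exact interval. Of all 3081 protein-coding genes with a Chd4 promoter peak, 1.30% had a Seh1-flag peak and 0.649% a Seh1 Ctrl peak that close, so none among 21 is near the background. The nearest Seh1-flag peak was at a median of 28312 bp, with the closest 1472 bp away at Mrpl18 and the next 1633 bp away at Cox8a. The nearest Seh1 Ctrl peak was at a median of 24050 bp, with the closest 6180 bp away at Ndufs7. By any RefSeq start, 3 mitochondrial genes had a Seh1-flag peak (1.80%), against 1.38% of all genes, and 1 a Seh1 Ctrl peak (0.599%), against 1.05%. The genes added were Mrpl57, with a score of 3.03 at 750 bp, and Mrpl10, with a score of 5.45 at 571 bp. Mrpl57 was also among the genes added in siSeh1, with its peak 90 bp from the start.

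With a limit of 2000 bp in place of 1000 bp the counts would be 11 genes in iKO, 24 in siSeh1 and 4 in siSCR, and 21 genes gained in siSeh1 against siSCR. The shares of all genes at 2000 bp were not computed, so the larger counts are no result about mitochondrial genes as such. The promoter peaks closest to the 1000 bp limit from inside were those of Cox7a1 (-837 bp, Seh1-flag), Ndufa1 (-697 bp, Seh1 Ctrl) and Ndufb10 (564 bp, siSeh1). The closest from outside were Mrpl9 (-1083 bp, Seh1 Ctrl), Atp5e (1189 bp, siSeh1), Ndufb6 (1201 bp, siSeh1) and Cox6a1 (-1262 bp, siSeh1). In iKO the closest from outside was Uqcr11, at -1534 bp.

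The other 365 peaks lay away from promoters, 55 of them in the gene they were named for, 96 in another gene and 214 between genes. Their median distance from the start was shorter than that of all peaks away from promoters in each list: 40550 against 56436 bp in iKO, 81596 against 86540 bp in Ctrl, 23465 against 49252 bp in siSeh1, 36100 against 52060 bp in siSCR, 29670 against 47157 bp in Seh1-flag and 44401 against 60286 bp in Seh1 Ctrl. The named gene held 11.8% of them (10 of 85) against 24.8% of all such peaks in iKO, none of 7 against 18.9% in Ctrl, 14.1% (12 of 85) against 27.7% in siSeh1 and 20.0% (1 of 5) against 20.9% in siSCR. In the Seh1 lists it held 22.1% (23 of 104) against 28.2% in Seh1-flag and 11.4% (9 of 79) against 26.7% in Seh1 Ctrl. By the deposited annotation all 7 mitochondrial peaks of Ctrl were intergenic, where 73.7% of all Ctrl peaks were. By the split into places used above, 1 of them lay in another gene and 6 between genes.

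**Figure D5:**
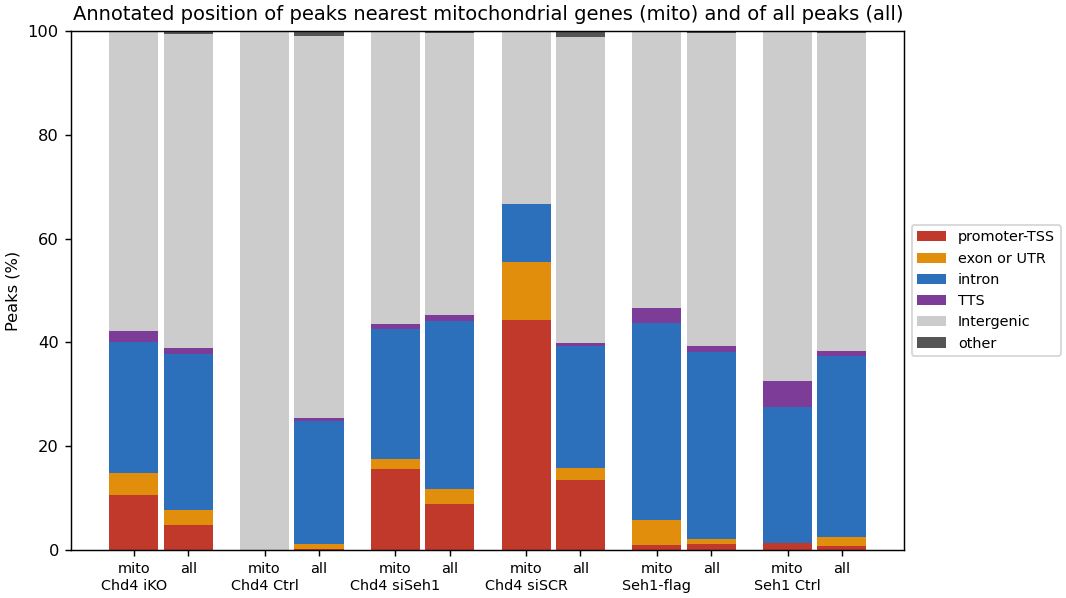
Share (%) of peaks by their deposited annotation, for peaks nearest a mitochondrial gene (mito) and all peaks (all) of each list. The promoter-TSS class takes 10.5% against 4.85% in Chd4 iKO, 15.5% against 8.80% in siSeh1 and 44.4% (4 of 9 peaks) against 13.5% in siSCR; all 7 mitochondrial peaks of Ctrl are intergenic.

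As a share of peaks, the promoter class was larger near mitochondrial genes than over the whole list in all 3 Chd4 lists that held one. It took 10.5% against 4.85% of peaks in iKO, 15.5% against 8.80% in siSeh1 and 44.4% (4 of 9) against 13.5% in siSCR, and 0.952% against 1.04% in Seh1-flag and 1.25% against 0.749% in Seh1 Ctrl. The mitochondrial genes were 196 of 21900 genes, and the peaks nearest to them were 0.446% of iKO peaks, 0.382% of siSeh1 peaks and 0.345% of siSCR peaks. These are shares of peaks and not of genes. Counted by gene, promoter peaks were at 5.10% against 5.18% in iKO, 9.18% against 11.8% in siSeh1 and 2.04% against 1.63% in siSCR. Each of these lay within counting error, so the larger promoter class does not mean that more of the mitochondrial genes had a promoter peak.

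Cox7c, a complex IV subunit that stands in a region with few genes, took 63 of the 399 peaks (15.8%), and none was near its promoter. They were 17 in iKO, 2 in Ctrl, 12 in siSeh1, none in siSCR, 16 in Seh1-flag and 16 in Seh1 Ctrl, all intergenic and 24036 to 1362067 bp from its start. The peaks named for Cox7c thus lie in the wide gap around the gene. The iKO peak of highest score away from promoters was one of them (rank 334.5), 1000748 bp from the start in an L1 element. In siSeh1 the highest lay in intron 2 of Mrps27, of the small ribosomal subunit. The Mrps27 peak had a score of 6.55 in iKO (chr13:99353365, rank 530.5) and 15.5 in siSeh1 (chr13:99353383, rank 187.5), 8579 and 8597 bp from the start. It was the one place away from promoters where a mitochondrial peak of iKO overlapped one of siSeh1.

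Most of the other high-scoring peaks away from promoters lay in repeats. In Seh1-flag the first were in intron 14 of Ndufs1, the largest complex I subunit (score 10.3, rank 617, in a simple repeat), and at Mrpl15 and Cox7c (both score 9.23, rank 1037, also in simple repeats). In Ctrl the first was a peak 21964 bp from Uqcrb, in an L1 element (score 5.25, rank 111). The Mrps6 peaks of Ctrl and siSCR, 86862 and 86868 bp from the start in an LTR element, overlapped each other, which no other mitochondrial peak of these 2 lists did. Repeats held 45.9% of mitochondrial peaks away from promoters against 51.1% of all such peaks in iKO, 85.7% (6 of 7) against 56.1% in Ctrl, 56.5% against 46.3% in siSeh1 and 40.0% (2 of 5) against 58.1% in siSCR. They held 51.9% against 57.6% in Seh1-flag and 57.0% against 49.7% in Seh1 Ctrl, with no common direction over the 6 lists.

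With summits widened to 240 bp, 10 of 95 mitochondrial peaks of iKO overlapped a siSeh1 peak (10.5%), against 4.79% of all iKO peaks, and 8 of 103 of siSeh1 overlapped an iKO peak (7.77%), against 3.79%. All but the Mrps27 peak were promoter peaks. Counted by gene, 4.08% of mitochondrial genes had a promoter peak in both lists, against 3.19% of all genes, which is within counting error. With siSCR, 3 of 95 iKO peaks overlapped (3.16%), against 1.61% of all iKO peaks. None of the 95 overlapped a peak of Ctrl, Seh1-flag or Seh1 Ctrl, where 0.0657%, 0.850% and 1.11% of all iKO peaks did, so 95 peaks are too few to show a difference. In siSeh1 1 of 103 (0.971%) overlapped a Seh1-flag peak, far from Cox7c, against 0.575% of all siSeh1 peaks, and 1 of 103 a Seh1 Ctrl peak, far from Mrpl15, against 0.802%. These counts of 1 are near the background.

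Other genes of mitochondrial function, in 7 lists of 108 genes, had promoter peaks at 20 in siSeh1 (18.5%) and 1 in siSCR (0.926%), at 5 in iKO (4.63%) and none in Ctrl, and at 4 in Seh1-flag (3.70%) and 1 in Seh1 Ctrl (0.926%). The share was 3.70% (1.02 to 9.21%) against 1.33% of all genes in Seh1-flag and 0.926% against 1.02% in Seh1 Ctrl, and 0.926% against 1.63% in siSCR, all within counting error. It was 4.63% (1.52 to 10.5%) against 5.18% in iKO and 18.5% (11.7 to 27.1%) against 11.8% in siSeh1, with the siSeh1 background at the lower edge of the interval. The citric acid cycle and pyruvate dehydrogenase list had the most, 7 of 17 in siSeh1 against 1 in iKO. Of all genes, 11.8% and 5.18% had a promoter peak in these 2 lists. This list is the highest of the 7, picked after the values were seen, and no interval was computed for it. The malate dehydrogenase gene Mdh2 had a score of 9.11 in siSeh1 (rank 650.5, at -114 bp), followed by Pdhb and Idh3g (6.28 each) and Ogdh (4.73), and Ogdh also had one in iKO (4.10, rank 5396).

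Of 32 assembly genes of complexes II to V, 5 had a promoter peak in siSeh1 and none in iKO, where 11.8% and 5.18% of all genes did. Pet100, for complex IV assembly, had a score of 12.2 (rank 357, at -36 bp) and Lyrm7, for complex III, one of 8.86 (rank 699, at -67 bp). Of the 4 complex II genes, Sdhb had a peak in siSeh1 (5.41) and Sdhc in iKO (3.08), and the 3 genes of cytochrome c and c1 had none. Mtrf1l, a mitochondrial release factor, had scores of 3.62 in iKO and 11.1 in siSeh1, and Immp1l, of the inner membrane peptidase, had a score of 8.39 in iKO. Polg, the mitochondrial DNA polymerase, had a score of 3.79 in siSeh1 at chr7:79466343 and of 6.84 in Seh1-flag at chr7:79464005, which are different places.

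Among 9 regulators of mitochondrial genes, Esrra had scores of 6.49 in iKO and 7.03 in siSeh1, and Yy1 had 6.50 in siSeh1 and 2.96 in siSCR. Nrf1 had a score of 3.42 in siSeh1 at chr6:30048971, 983 bp downstream of an annotated start in an intron. It also had a promoter peak in both Seh1 lists, at chr6:30087078 in Seh1-flag and chr6:30086818 in Seh1 Ctrl. The Seh1-flag peak had a score of 3.62 (rank 18971 of 24961), below the median score of 4.65 of that list, and the Seh1 Ctrl peak has no score. The Seh1 peaks are thus at a different place from the Chd4 peak. Neither Gabpa nor Tfam, the packaging factor of mitochondrial DNA, had a promoter peak under its own name in any list. The siSeh1 peak named for Atp5j lies 533 bp from the Gabpa start, so by any RefSeq start within 1000 bp it also counts for Gabpa. Nrf1 was the one gene of the 7 lists with a promoter peak in both Seh1 lists.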

How the data were processed

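Peak lists were deposited for 6 ChIP-seq libraries. Per the file headers, the authors annotated the peaks with HOMER on mouse build mm10; the submitters' processing notes name Bowtie2 and HOMER without versions, and human builds, which the headers and the mouse gene names contradict. Not given in the sources used here are the peak caller, its threshold, the input and whether samples were pooled. The deposited peak score has no stated scale, and the deposited distance to the nearest start is in bp. Entries of 5 lists are single positions; the Seh1 Ctrl list holds intervals.

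From these files, promoter peaks were counted per gene in Python 3.11.15 (pandas 2.3.3, numpy 2.4.6; exact intervals from scipy 1.17.1). Of the gene identifiers, 99.84% matched the RefSeq table of GRCm38.p6, and 167 of 196 mitochondrial genes matched a promoter sequence; of several promoters of a gene, the one with the highest CpG ratio was used for composition and motifs. The code was tested on simulated data. The members, the gene lists and the motifs were chosen with earlier results of these data known. Genes were named if they had a promoter peak in at least 2 lists, in Ctrl, siSCR or a Seh1 list, or ranked in the first 10 of those in iKO or siSeh1 alone. Also named were the highest peaks away from promoters, those next to the 1000 bp limit, up to 4 genes per other list, and Nrf1, Gabpa and Tfam. Neighbours listed with them and the genes added by another assignment were named after their values were seen. Alternatives changed the promoter window, the gene assignment, the minimum score, the list length, the control list and the summit distance, or kept protein-coding genes only.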

Additional observations from a re-analysis of the deposited data

How the results depend on the processing

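Of 50 alternatives computed, 38 left the count within 1.5 times of its value. Some of the 38 were fixed in advance: a limit to protein-coding genes could change no count, because only such genes were counted. Counts of gained and lost genes were recomputed only for the other windows and, for iKO, with siSCR as the control. By any RefSeq start all 6 siSCR genes had a peak in siSeh1, so the loss of Ndufaf2 did not remain. A window of 500 bp left 0 mitochondrial genes in Seh1-flag and 0 in Seh1 Ctrl, and 2000 bp gave 5 and 2, with 24 in siSeh1. Any RefSeq start within 1000 bp gave 28 genes in siSeh1, 13 in both iKO and siSeh1 and 3 in Seh1-flag, over 167 genes rather than 196, without Ndufa2 and Uqcrc2. Set beside all genes it moved the share from below to above in iKO (8.38% against 6.21%, and 5.10% against 5.18% by nearest start), siSeh1 (16.8% against 14.1%, and 9.18% against 11.8%) and Seh1-flag (1.80% against 1.38%, and 0.510% against 1.33%), each time within counting error. That assignment favours genes with a close neighbour, and head-to-head neighbours were more common among mitochondrial genes (29.3% against 8.48%). A minimum score of 5 left 9 genes in siSeh1 and 5 in both perturbed lists, and could not be applied to Seh1 Ctrl, which has no scores. Cutting each perturbed list to the length of its control left 4 genes in iKO (2.04%, against 2.04% of all genes), 9 in siSeh1 (4.59%, against 5.96%) and 2 in both. No share of all genes was computed for the other windows, for the minimum score or for both lists after the cut. The counts at those settings therefore do not tell whether mitochondrial genes moved differently from all genes. In Ctrl the count was 0 under every alternative run. No paired analysis was possible because each group has 1 library and no test was made. The depth of the lists is unknown, so a missing peak does not show that the protein was absent, and list length moves every count of gained genes.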

Other observations

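Besides the protein-coding genes, RefSeq holds 27 genes of other kinds with these name beginnings, and 2 of them had a peak. Ndufa11b, a pseudogene, was nearest to a Seh1 Ctrl peak 12254 bp from its start. Tomm6os, a long non-coding RNA, was nearest to a siSeh1 peak at -10558 bp.

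Among genes with no promoter peak, some had several peaks away from their starts. Ndufa4, a subunit first assigned to complex I and now placed in complex IV, was nearest to 16 peaks, of which 6 were in iKO, 3 in siSeh1, 6 in Seh1-flag and 1 in Seh1 Ctrl. Cox7a2l, known for its part in respiratory supercomplexes, was nearest to 12 peaks, of which 3 were in iKO, 2 in siSeh1, 6 in Seh1-flag and 1 in Seh1 Ctrl. In the 3' UTR of Mrpl19, of the large ribosomal subunit, lay a Seh1-flag peak with a score of 7.29 (rank 2992), and in exon 7 of Ndufaf6, a complex I assembly factor, a siSCR peak with a score of 3.18 (rank 1510.5). These are single peaks of single libraries and were picked after their values were seen.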
